A study of Mus musculus with 9 samples.

Results

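The proteasome genes of mouse tumours were taken as the protein-coding entries of the count table whose names begin with Psma, Psmb, Psmc, Psmd, Psme, Psmf or Psmg and a digit, without the immunoproteasome genes Psmb8, Psmb9 and Psmb10. The rule found 44 genes among 44806 entries, and 42 of them had enough reads to be tested. Tumours were grown from MB49, a mouse bladder cancer line that per the labels overexpresses HER2, a growth factor receptor known in mice as Erbb2. Mice received PBS, Lipo-BiTE or Lipo-TriTE, with 3 libraries for each treatment, and all groups carried the HER2 tumour. The term BiTE commonly stands for a bispecific T cell engager, which is built from antibody fragments and brings T cells into contact with tumour cells. Neither the targets of the agents, the dose, the day of collection, the age of the mice nor the species of the added HER2 is given in the sources used here, and whether each library came from 1 mouse is not stated either. The PBS columns of the count table are headed untreated, so that match is an inference. Sample labels and protocol describe frozen whole tumour, whereas the design text describes sorted CD3-positive T cells; Krt8 and Krt18, keratins of epithelial cells, stood at 156 to 479 CPM in the 9 libraries and the summed level of 8 T cell markers at 36.7 to 1351 CPM. Upk3a, a surface protein of the urothelium, was at 0 in some libraries, as was Krt14, a basal keratin. In PBS the 8 T cell markers summed to 36.7 to 43.2 CPM, beside 453 to 479 CPM for Krt8 alone. The libraries are read below as whole tumour.

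The proteasome is the large protease that degrades proteins tagged with ubiquitin. Its 20S core is a barrel of alpha rings, which form the gate, and beta rings, which carry the cutting sites. A 19S cap, with a base of ATPases that unfold substrates and a lid that removes ubiquitin, feeds the core. Activators such as PA28 can replace the cap, and interferon is known to raise PA28 alpha and beta together with the immunoproteasome subunits, which take the place of the constitutive cutting subunits and alter the peptides offered to T cells. Messenger RNA was measured here, not protein or protease activity.

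The libraries held 13152783 to 20273548 read counts, of which the 44 genes took 0.418% to 0.714%. Levels are given as CPM, read counts scaled to a common library total, with totals adjusted by TMM, which removes differences in RNA composition. Changes were tested with edgeR's quasi-likelihood test across all tested genes, with Benjamini-Hochberg adjustment, and a gene was called at an adjusted p under 0.05. By name the table held 31 subunits of the 20S core and the 19S cap, of which 29 were tested, along with 4 activators, 1 inhibitor, 7 assembly chaperones and Psmc3ip, a recombination factor that shares only the name. Psmb5 and Psmd2 are not analysed here under their own names. Psma8, the alpha subunit of germ cells, had 0 counts in PBS 1, 2 and 3, stood at 1.42, 0.150 and 0.218 CPM in Lipo-BiTE 1, 2 and 3 and at 0.291, 0.508 and 0.130 CPM in Lipo-TriTE 1, 2 and 3. Psmb11, the beta subunit of the thymic cortex, had 11 counts in all libraries together, and neither gene was tested.

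Most genes of the core and cap had lower means in both treated groups than in PBS, by small amounts, and few passed the test. In Lipo-BiTE against PBS 3 of the 42 tested genes fell, Psmb7, Psmc1 and Psmd1, which is 7.14% against 3.22% of all tested genes. None rose, against 13.8% of all genes; with edgeR 1 gene had a raw p under 0.05 in that direction, and DESeq2 and limma-voom also gave 0 calls. The fitted change was negative for 37 of the 42 genes and positive for 5, with a median log2 fold change of -0.27 beside -0.02 over all genes. The 3 treated libraries lay wholly below the 3 PBS libraries for 22 of the 42 genes, where 19.4% of all genes did so, and wholly above them for 1, Psme2, where 22.7% of all genes did so. The members are subunits of 1 complex measured in the same libraries, so these counts are not of independent genes.

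In Lipo-TriTE against PBS 2 genes rose, Psme1 and Psme2, and 2 fell, Psmb7 and Psmd1. That is 4.76% of the 42 in either direction, beside 18.9% of all genes called higher and 14.8% called lower. Changes were negative for 35 genes and positive for 7, with a median log2 fold change of -0.19 beside 0.00 over all genes. Libraries lay wholly below PBS for 12 genes, beside 23.4% of all genes, and wholly above for 3, beside 26% of all genes.

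In Lipo-TriTE against Lipo-BiTE 1 gene rose, Psme2, which is 2.38% of the 42 against 4.88% of all genes. None fell, against 5.21% of all genes; with edgeR 1 gene had a raw p under 0.05 in that direction, and DESeq2 and limma-voom gave 0 calls. Changes were positive for 34 genes and negative for 8, with a median log2 fold change of 0.10 beside -0.01 over all genes. Libraries of the 2 groups did not overlap for 6 genes that were higher, beside 16.1% of all genes, and for 1 that was lower, Psme4, beside 14.4% of all genes. The comparisons share libraries, each with the other 2, so their values are set side by side and no relation between them is drawn.

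**Figure D1:**
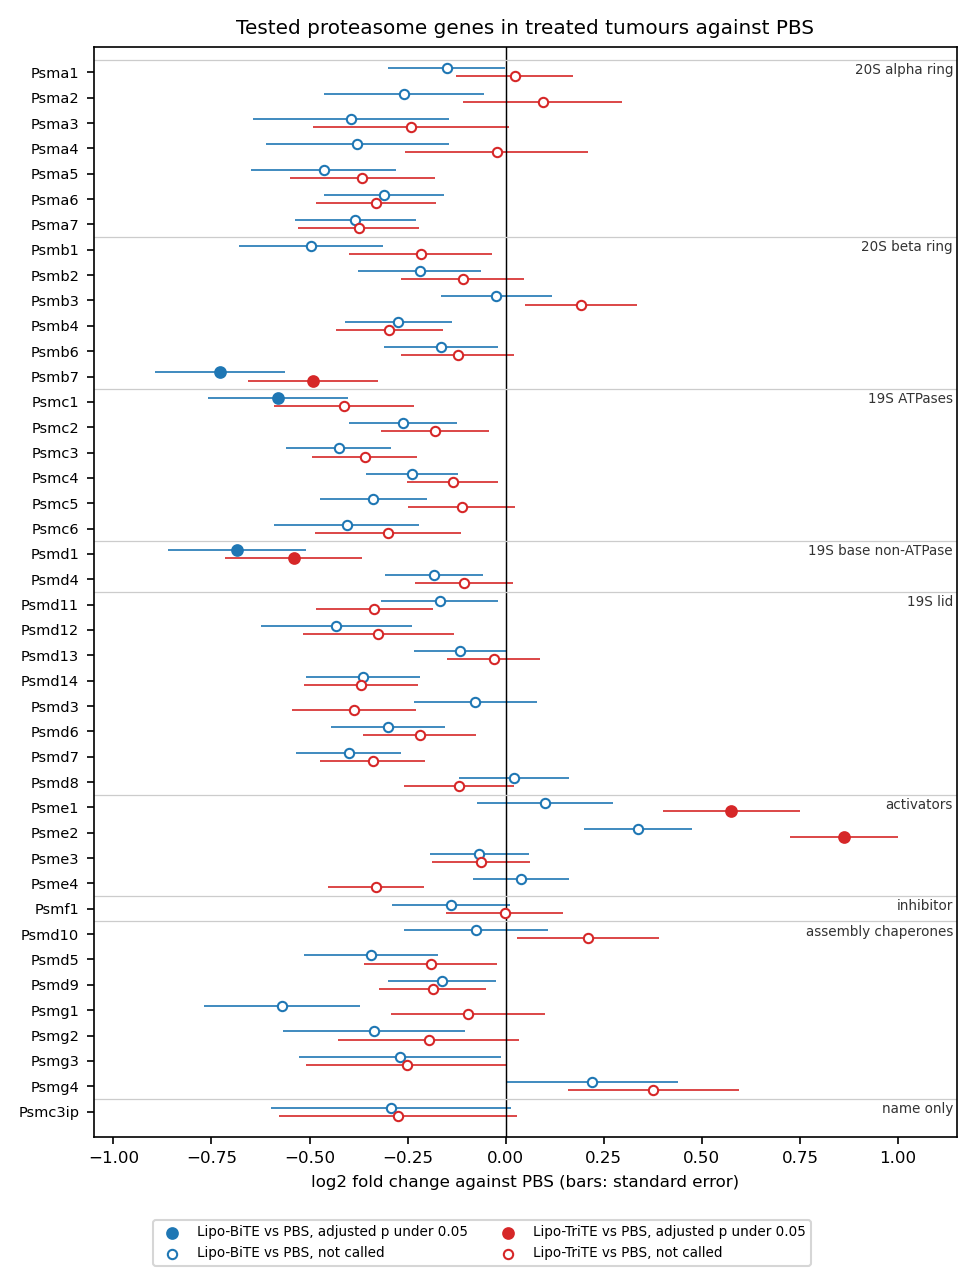
Fitted log2 fold change against PBS (horizontal axis, bars: standard error) of the 42 tested proteasome genes, grouped by role, for Lipo-BiTE and Lipo-TriTE. Filled points have an adjusted p under 0.05: Psmb7, Psmc1 and Psmd1 in Lipo-BiTE and Psmb7, Psmd1, Psme1 and Psme2 in Lipo-TriTE; most open points lie left of 0.

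The libraries of a group were not alike for these genes. PBS 1 was the highest PBS library for 34 of the 42 genes, with a median log2 difference of 0.30 from the other PBS libraries, beside -0.02 over all genes. Lipo-TriTE 3 was the highest of its group for 28 genes and Lipo-BiTE 3 for 25, with medians of 0.22 and 0.10. In PBS 1 genes up to 1824 bases long stood at a median of 0.10 and those of 5520 bases or more at -0.09 on the same log2 scale, and in Lipo-TriTE 3 at 0.08 and -0.13; the part of gene length in the members' pattern was not tested. Without PBS 1 the call on Psmb7 was the one left in Lipo-BiTE, and no lower call was left in Lipo-TriTE. Without PBS 1 the median log2 fold change was -0.19 for Lipo-BiTE and -0.11 for Lipo-TriTE.

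The number of lower calls moved with other libraries too. In Lipo-BiTE it was 1 without PBS 2, without Lipo-BiTE 1 or without Lipo-BiTE 2, and 5 without Lipo-BiTE 3. In Lipo-TriTE it was 0 without PBS 2, PBS 3 or Lipo-TriTE 2, 1 without Lipo-BiTE 2, Lipo-BiTE 3 or Lipo-TriTE 1, 4 without Lipo-BiTE 1 and 6 without Lipo-TriTE 3. The median of Lipo-TriTE against PBS was -0.11 without Lipo-TriTE 1. The median of Lipo-TriTE against Lipo-BiTE was 0.03 without Lipo-BiTE 1 and 0.01 without Lipo-TriTE 3, and 0.16 and 0.17 without Lipo-BiTE 3 and Lipo-TriTE 1.

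**Figure D2:**
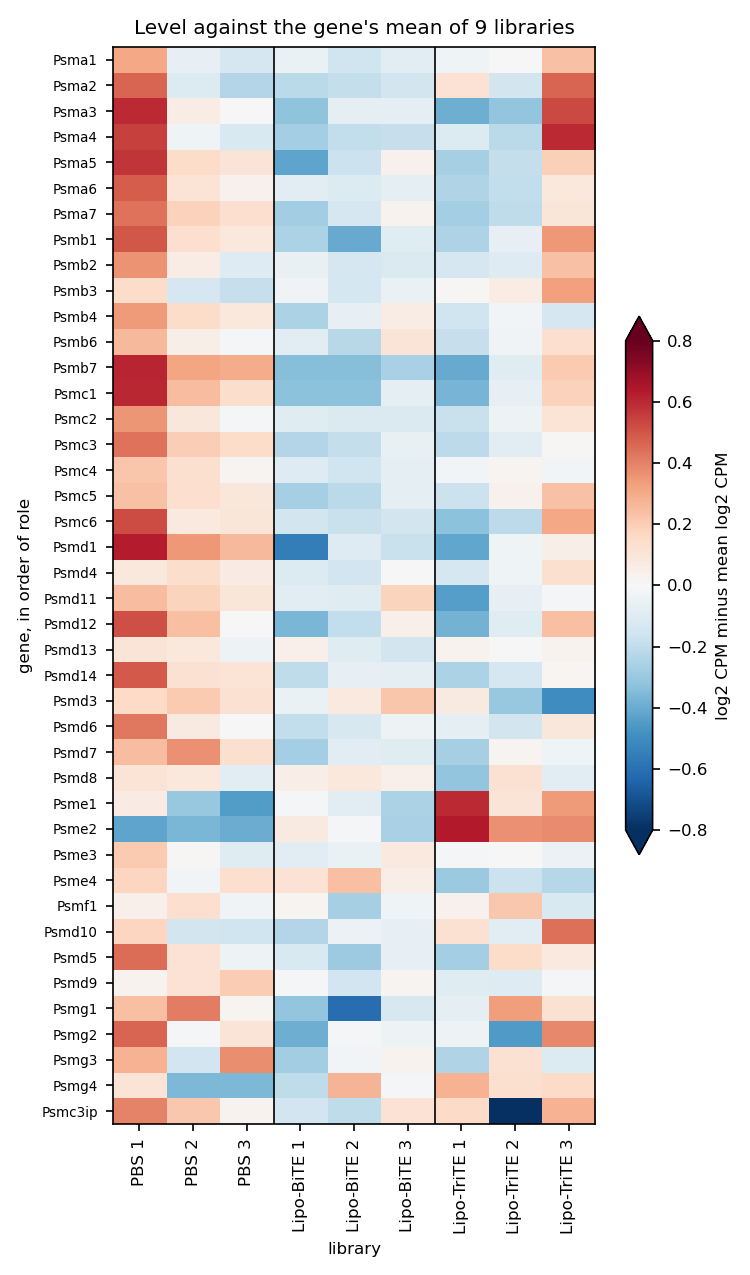
Level of each tested gene in each of the 9 libraries, as log2 CPM minus the gene's mean over the libraries; colours end at 0.8 on either side and values beyond take the end colour. PBS 1 is the reddest column for most core and cap genes and Lipo-TriTE 3 the reddest of its group, while Psme1 and Psme2 run the other way, highest in the Lipo-TriTE columns.

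Summed over the 31 core and cap genes, PBS 1, 2 and 3 stood at 6064, 5060 and 4784 CPM. Lipo-BiTE 1, 2 and 3 stood at 3998, 4153 and 4470 CPM, and Lipo-TriTE 1, 2 and 3 at 3983, 4315 and 5061 CPM. The Lipo-BiTE libraries were thus below the lowest PBS library, whereas Lipo-TriTE 3 was within the PBS range. For 20 of the 29 tested subunits the group means ran PBS, Lipo-TriTE, Lipo-BiTE from high to low; 5 ran PBS, Lipo-BiTE, Lipo-TriTE, 3 had Lipo-TriTE highest and Lipo-BiTE lowest, and 1 had Lipo-BiTE highest and Lipo-TriTE lowest. In whole tumours, fewer cells of a type and less RNA per cell cannot be told apart.

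Marker genes of several cell types also differed between the groups. The summed level of 8 cell cycle genes was 1456 to 1761 CPM in PBS, 948 to 1388 in Lipo-BiTE and 1069 to 1163 in Lipo-TriTE, and that of 7 epithelial and tumour markers 869 to 930, 571 to 779 and 384 to 631 CPM. Of the cell cycle genes 1 of 8 fell in Lipo-BiTE, beside 3.22% of all genes, and 3 of 8 in Lipo-TriTE, beside 14.8%. The epithelial and tumour list did not move as one: Krt8 and Krt18 make up most of its sum and fell by 0.92 and 0.78 on the log2 scale in Lipo-TriTE against PBS (edgeR adjusted p = 0.0098 and 0.018). Erbb2, at a mean of 21.3 CPM in PBS, fell by 1.28 in Lipo-TriTE (edgeR adjusted p = 0.0024) and stood at -0.17 in Lipo-BiTE (adjusted p = 0.66). Whether this entry counts reads of the added HER2 is not known, as the species of that gene is not given. Cdh1, the epithelial cadherin, rose by 2.63 in Lipo-BiTE and 3.21 in Lipo-TriTE (edgeR adjusted p = 0.0029 and 0.00064), and Epcam stood at -0.36 and 0.83 (adjusted p = 0.57 and 0.13). All 8 T cell, 7 macrophage and 6 neutrophil markers tested rose in both treated groups against PBS. Fibroblast markers were negative for 7 of 7 in both treated groups. In each, 4 of 7 were called lower, beside 3.22% of all genes in Lipo-BiTE and 14.8% in Lipo-TriTE. Their sums were 2070 to 3162 CPM in PBS, 1368 to 2310 in Lipo-BiTE and 925 to 1452 in Lipo-TriTE. Col3a1 makes up most of these sums, and Lum was at 0 in some libraries. From Lipo-BiTE to Lipo-TriTE 4 of the 7 were positive and 3 negative. None of these changes passed the test, with edgeR adjusted p from 0.062 upward. Of the endothelial markers, Pecam1, also found on leukocytes, rose by 3.51 and 3.97 on the log2 scale (edgeR adjusted p = 0.00099 and 0.00026), while Cdh5 stood at 0.19 in Lipo-BiTE (adjusted p = 0.56) and fell by 0.75 in Lipo-TriTE (adjusted p = 0.018). Kdr, with 423 counts in all libraries together, stood at 0.93 in Lipo-BiTE (edgeR adjusted p = 0.34). In Lipo-TriTE it rose by 2.61 (edgeR adjusted p = 0.0089). The 4 endothelial markers summed to 133 to 157, 210 to 235 and 146 to 222 CPM, and Tek was at 0 in some libraries. The summed macrophage level was 89.4 to 149 CPM in PBS, 682 to 1624 in Lipo-BiTE and 496 to 690 in Lipo-TriTE, and the summed neutrophil level 131 to 294, 1117 to 6200 and 1279 to 4263 CPM. None of the markers of muscle and fat had enough reads to be tested. The part of these cell types in the levels of the core and cap genes was not tested.

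The alpha ring, which gates the core, had 7 tested subunits, and none of their changes passed the test, with edgeR adjusted p between 0.11 and 0.52 in Lipo-BiTE and between 0.083 and 0.95 in Lipo-TriTE; without Lipo-TriTE 3, Psma3 and Psma7 were called lower in Lipo-TriTE. Their median log2 fold change was -0.38 in Lipo-BiTE, -0.24 in Lipo-TriTE and 0.15 between the treated groups. Psma5 had the lowest value in Lipo-BiTE, at 298, 222 and 216 CPM in PBS, 150, 178 and 205 CPM in Lipo-BiTE and 167, 176 and 229 CPM in Lipo-TriTE. Its log2 fold change was -0.46 (SE 0.19, edgeR adjusted p = 0.11) in Lipo-BiTE, where the libraries did not overlap with PBS, and -0.37 (adjusted p = 0.15) in Lipo-TriTE, where they did. Psma7 had the lowest in Lipo-TriTE, at -0.37 (SE 0.15, edgeR adjusted p = 0.083). Psma4 was uneven among libraries: it stood at 189, 126 and 118 CPM in PBS, 107, 112 and 114 in Lipo-BiTE and 119.5, 111 and 195 in Lipo-TriTE, where the third library was above the highest of PBS. Its difference between the treated groups was 0.35 on the log2 scale (SE 0.23, edgeR adjusted p = 0.38).

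The beta ring carries the cutting sites. Psmb6 and Psmb7 encode the constitutive cutting subunits that Psmb9 and Psmb10 replace in the immunoproteasome. Psmb7, at chromosome 2, 38385815 to 38441538 on the minus strand of the C57BL/6NJ gene models the table uses, stood at 183, 149 and 147 CPM in PBS 1, 2 and 3. It stood at 94.6, 94.5 and 100.1 CPM in Lipo-BiTE and at 90.6, 112 and 138 CPM in Lipo-TriTE. The PBS libraries were above every library of either treated group. Psmb7 fell by 0.73 on the log2 scale in Lipo-BiTE (SE 0.17, edgeR adjusted p = 0.012), which is 1.66-fold lower, and by 0.49 in Lipo-TriTE (SE 0.17, edgeR adjusted p = 0.041). The treated groups differed by 0.24 (SE 0.17, edgeR adjusted p = 0.41).

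In Lipo-BiTE the call on Psmb7 was lost without Lipo-BiTE 2, at an adjusted p of 0.052. In Lipo-TriTE it was lost without Lipo-TriTE 1, Lipo-TriTE 2, PBS 1, PBS 2, PBS 3, Lipo-BiTE 2 or Lipo-BiTE 3, with adjusted p of 0.15, 0.12, 0.11, 0.081, 0.072, 0.054 and 0.051, and the log2 fold change between -0.34 and -0.54.

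Psmb6 showed no such separation. It stood at 146, 126 and 120 CPM in PBS, 114, 105 and 131 CPM in Lipo-BiTE and 107, 119 and 134 CPM in Lipo-TriTE, so the 3 groups overlapped. Its log2 fold change was -0.16 (SE 0.14) in Lipo-BiTE and -0.12 (SE 0.14) in Lipo-TriTE, with edgeR adjusted p of 0.46 and 0.55. Of the other tested beta subunits, Psmb1 stood at -0.50 (SE 0.18, edgeR adjusted p = 0.088) in Lipo-BiTE, where it was called lower on total counts without TMM or without a filter, and had the widest difference between the treated groups in this ring, at 0.28 (adjusted p = 0.37). Psmb3 was the beta subunit nearest to no difference in Lipo-BiTE, at -0.02, and the one with a positive value in Lipo-TriTE, at 0.19 (SE 0.14, edgeR adjusted p = 0.33).

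**Figure D3:**
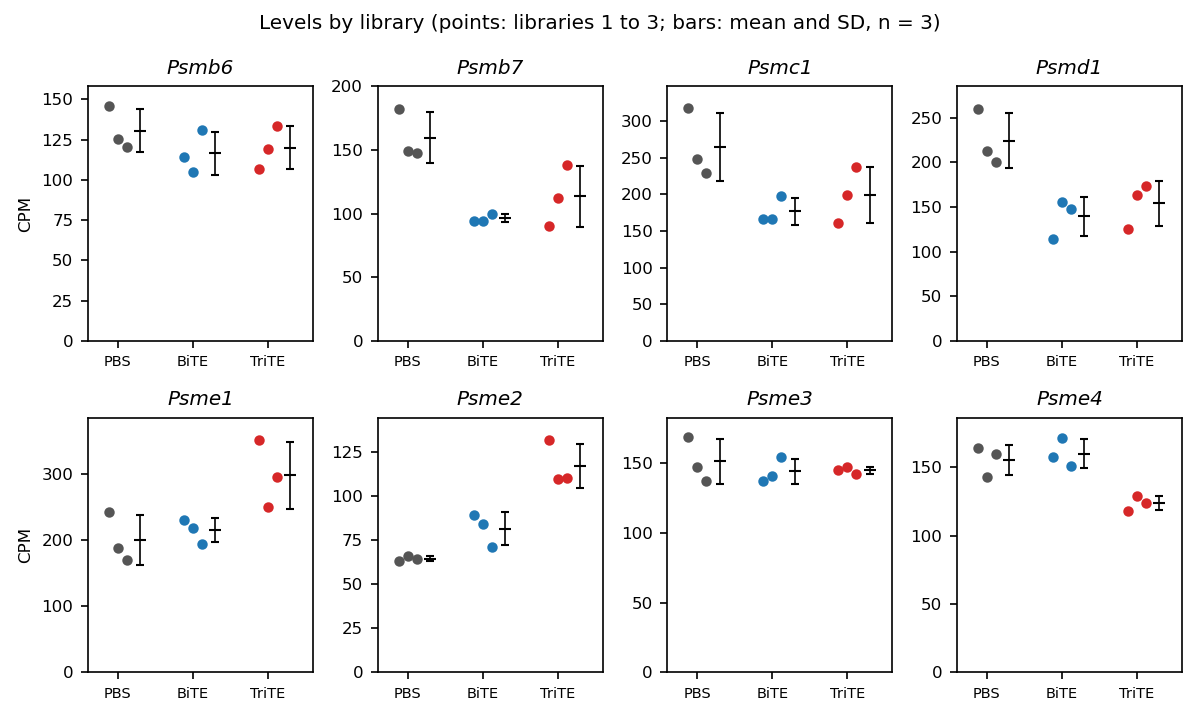
CPM by library (points, libraries 1 to 3 from left to right; bars: mean and SD, n = 3) of 4 core and cap genes above and the 4 activators below, each axis starting at 0. Psmb7 and Psmd1 in PBS lie above all treated libraries, Psme1 and Psme2 in Lipo-TriTE above all PBS libraries, and Psme4 in Lipo-TriTE below all others.

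The 6 ATPases of the cap lay wholly below PBS in Lipo-BiTE, 6 of 6 beside 19.4% of all genes, with a median log2 fold change of -0.37. In Lipo-TriTE 2 of 6 did, beside 23.4% of all genes, with a median of -0.24. Psmc1 encodes an ATPase whose tail helps to open the gate of the core, and lies at chromosome 12, 104708359 to 104721152 on the plus strand. It stood at 317, 248 and 230 CPM in PBS, 167, 167 and 198 CPM in Lipo-BiTE and 161, 199 and 237 CPM in Lipo-TriTE. Lipo-TriTE 3 was within the PBS range and the Lipo-BiTE libraries were below it. Psmc1 fell by 0.58 on the log2 scale in Lipo-BiTE (SE 0.18, edgeR adjusted p = 0.047). In Lipo-TriTE its value was -0.41 (SE 0.18, edgeR adjusted p = 0.099), and between the treated groups 0.17 (adjusted p = 0.60).

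The call on Psmc1 was the least stable of the 3 in Lipo-BiTE, kept in 8 of 17 other settings. It was lost without PBS 1, 2 or 3, with adjusted p of 0.16, 0.086 and 0.058, without Lipo-BiTE 1 or 2, with 0.15 and 0.16, and without Lipo-TriTE 2, with 0.075. Psmc3 came next among the ATPases, at -0.43 (SE 0.13, edgeR adjusted p = 0.051) in Lipo-BiTE, where DESeq2 called it lower, and -0.36 (SE 0.13, adjusted p = 0.060) in Lipo-TriTE. Psmc5 had the widest difference between the treated groups among the ATPases, at 0.23 (SE 0.14, edgeR adjusted p = 0.33).

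Psmd1 is the large scaffold of the base, on which ubiquitin receptors dock, and lies at chromosome 1, 90625056 to 90706265 on the plus strand. It stood at 259, 213 and 200.4 CPM in PBS, 114, 156 and 148 CPM in Lipo-BiTE and 126, 164 and 173 CPM in Lipo-TriTE. All PBS libraries were above the libraries of both treated groups. Psmd1 fell by 0.69 on the log2 scale in Lipo-BiTE (SE 0.18, edgeR adjusted p = 0.022), 1.61-fold lower, and by 0.54 in Lipo-TriTE (SE 0.18, edgeR adjusted p = 0.035). The treated groups differed by 0.14 (SE 0.18, edgeR adjusted p = 0.66).

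In Lipo-BiTE the call on Psmd1 was lost without PBS 1, PBS 2 or Lipo-BiTE 1, with adjusted p of 0.080, 0.053 and 0.086. In Lipo-TriTE it was lost without PBS 1, 2 or 3, with 0.095, 0.080 and 0.057, and without Lipo-TriTE 1 or 2, with 0.14 and 0.081. Psmd4, a ubiquitin receptor of the base, changed less, at -0.18 (SE 0.12, edgeR adjusted p = 0.34) and -0.11 (SE 0.12, edgeR adjusted p = 0.55). Its libraries stood at 231, 241 and 228 CPM in PBS and 202, 196 and 219 CPM in Lipo-BiTE, without overlap, while Lipo-TriTE overlapped with PBS. An unnamed entry described in the table as Psmd2, the other scaffold, picked after its values were seen, stood at 338 ± 16.01 CPM (SD, n = 3) with PBS, at 295 ± 27.7 with Lipo-BiTE and at 273 ± 16.5 with Lipo-TriTE, and neither difference from PBS passed the test, with edgeR adjusted p of 0.32 and 0.088.

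The lid strips ubiquitin from substrates. None of its 8 subunits passed edgeR's test in any comparison, with adjusted p from 0.064 upward in Lipo-BiTE and from 0.072 upward in Lipo-TriTE. DESeq2, and edgeR on total counts without TMM, called Psmd7 lower in Lipo-BiTE, and Psmd3 was called lower in Lipo-TriTE without Lipo-TriTE 1. The median log2 fold change of the 8 was -0.23 in Lipo-BiTE, -0.33 in Lipo-TriTE and 0.03 between the treated groups. Wholly below PBS were 3 of 8 in Lipo-BiTE, beside 19.4% of all genes, and 4 of 8 in Lipo-TriTE, beside 23.4%. Psmd12 had the lowest value in Lipo-BiTE, at -0.43 (SE 0.19, edgeR adjusted p = 0.15), and Psmd7 the smallest adjusted p, at -0.40 (SE 0.13, edgeR adjusted p = 0.064). Psmd14, the ubiquitin-cleaving subunit, stood at 223, 173 and 171 CPM in PBS, 138, 152 and 151 in Lipo-BiTE and 134, 145 and 161 in Lipo-TriTE, at -0.36 and -0.37 (SE 0.14 for each, edgeR adjusted p = 0.11 and 0.072). Psmd3 had the lowest value of the lid in Lipo-TriTE. It stood at 192, 198 and 187 CPM in PBS, 166, 181 and 199.97 in Lipo-BiTE and 180, 139 and 122 in Lipo-TriTE. Its values were -0.08 in Lipo-BiTE, -0.39 in Lipo-TriTE (SE 0.16, edgeR adjusted p = 0.081) and -0.31 between the treated groups (adjusted p = 0.24).

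Promoter windows are shown for both cap genes that were called and for which the table of RefSeq promoters had an entry, from 250 bases before to 50 after the start site, in GRCm38.p6; Psmb7 had no entry. Psmd1 lies at chr1:86064369-86064668 and Psmc1 at chr12:100109952-100110251, both on the plus strand. Capitals mark a match to TGAGNNNGC at -224 to -216 in Psmd1, and to CCAAT at -175 to -171 in Psmc1.
Psmd1: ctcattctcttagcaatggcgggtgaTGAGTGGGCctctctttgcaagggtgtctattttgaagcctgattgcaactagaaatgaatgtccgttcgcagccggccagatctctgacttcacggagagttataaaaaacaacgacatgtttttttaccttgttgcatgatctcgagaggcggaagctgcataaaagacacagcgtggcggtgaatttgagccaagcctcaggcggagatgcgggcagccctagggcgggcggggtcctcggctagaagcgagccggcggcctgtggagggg
Psmc1: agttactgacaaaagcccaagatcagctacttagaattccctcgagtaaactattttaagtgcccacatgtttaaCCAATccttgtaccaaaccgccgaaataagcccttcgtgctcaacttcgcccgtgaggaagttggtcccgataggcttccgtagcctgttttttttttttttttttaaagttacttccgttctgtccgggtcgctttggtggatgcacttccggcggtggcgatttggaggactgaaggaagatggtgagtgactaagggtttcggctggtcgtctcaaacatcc
TGACNNNGC is the core of the antioxidant response element, to which NRF1 and NRF2 are known to bind and through which NRF1 raises proteasome genes when the proteasome is inhibited; TGAGNNNGC is its other form. CCAAT is the box bound by NF-Y.

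Both strands were searched in the 36 of 44 proteasome genes that had a promoter entry and in the 27025 genes of the promoter table; the matches of different motifs could overlap. TGACNNNGC was in 5 of 36, 13.9%, beside 14.0% of all genes. TGAGNNNGC was in 13 of 36, 36.1%, beside 19.8%, and one or the other in 16 of 36, 44.4%, beside 30.8%. CCAAT was in 14 of 36, 38.9%, beside 41.1%. Psmb6 held TGACNNNGC at -9 to -1, and of the called genes Psmd1 held TGAGNNNGC. A match describes letters in a window and not binding.

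Among the activators, the PA28 pair rose in Lipo-TriTE while the other activators did not pass the test. Psme1 encodes PA28 alpha, and Psme2 its partner PA28 beta, which together cap the core in place of the 19S. Both lie on chromosome 14, Psme1 at 52108833 to 52112239 on the plus strand and Psme2 at 52118263 to 52121858 on the minus strand. Psme2 stood at 63.4, 65.9 and 64.7 CPM in PBS, 89.3, 84.5 and 71.2 CPM in Lipo-BiTE and 132, 110 and 111 CPM in Lipo-TriTE. The 3 groups did not overlap, with PBS lowest and Lipo-TriTE highest. Psme2 rose by 0.86 on the log2 scale in Lipo-TriTE (SE 0.14, edgeR adjusted p = 0.0010), which is 1.82-fold, and kept its call in 17 of 17 other settings. In Lipo-BiTE its value was 0.34 (SE 0.14, edgeR adjusted p = 0.11).

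Between the treated groups Psme2 rose by 0.52 (SE 0.14, edgeR adjusted p = 0.035). That call was lost without Lipo-BiTE 2 or 3, with adjusted p of 0.12 and 0.088, without Lipo-TriTE 1, 2 or 3, with 0.075, 0.0504 and 0.069, and without PBS 2 or 3, with 0.053 and 0.052. An assembled locus without a gene name, described in the table as Psme2, held 8212 counts beside the 12449 of Psme2 itself, 66.0% as many, so reads of Psme2 may be split between them. It rose by 0.81 in Lipo-TriTE against PBS (SE 0.25, edgeR adjusted p = 0.029) and stood at 0.42 (adjusted p = 0.27) in Lipo-BiTE.

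Psme1 stood at 243, 188 and 171 CPM in PBS, 231, 219 and 195 CPM in Lipo-BiTE and 351, 250 and 295 CPM in Lipo-TriTE. The Lipo-TriTE libraries were above both other groups, and Lipo-BiTE overlapped with PBS. Psme1 rose by 0.57 on the log2 scale in Lipo-TriTE (SE 0.17, edgeR adjusted p = 0.026), 1.49-fold, with 0.10 (adjusted p = 0.73) in Lipo-BiTE and 0.47 (SE 0.17, adjusted p = 0.11) between the treated groups. The call was lost without PBS 2 or 3, with adjusted p of 0.095 and 0.11, and without Lipo-TriTE 1 or 3, with 0.082 and 0.055.

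Psme3, the nuclear PA28 gamma, was close to level, at 169, 147 and 137 CPM in PBS, 137, 141 and 154 in Lipo-BiTE and 145, 147 and 142 in Lipo-TriTE. Its log2 fold changes were -0.07 and -0.06 against PBS (SE 0.13 for each, edgeR adjusted p = 0.75 and 0.73). Psme4 encodes PA200, an activator linked to the breakdown of histones. It stood at 164, 143 and 160 CPM in PBS, 157, 171 and 151 CPM in Lipo-BiTE and 118, 129 and 124 CPM in Lipo-TriTE, so that Lipo-TriTE was below both other groups. Neither difference passed the test, at -0.33 against PBS (SE 0.12, edgeR adjusted p = 0.058) and -0.37 against Lipo-BiTE (SE 0.12, adjusted p = 0.080); without Lipo-BiTE 1 the former had an adjusted p of 0.047.

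The promoter windows of the PA28 pair, the called members that rose, are shown from the same RefSeq table in GRCm38.p6. Psme1 lies at chr14:55578244-55578543 on the plus strand and the first of the Psme2 entries at chr14:55591052-55591351 on the minus strand. Capitals in Psme1 mark a match, on the opposite strand, to GAAA followed by any 2 bases and a second GAAA, at 9 to 18 after the start; the Psme2 window held no match to the motifs searched.
Psme1: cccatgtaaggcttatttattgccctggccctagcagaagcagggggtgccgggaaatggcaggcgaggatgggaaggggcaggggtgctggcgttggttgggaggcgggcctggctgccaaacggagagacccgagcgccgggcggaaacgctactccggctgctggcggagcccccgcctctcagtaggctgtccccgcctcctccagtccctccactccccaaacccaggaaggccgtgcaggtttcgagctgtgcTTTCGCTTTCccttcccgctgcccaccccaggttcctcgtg
Psme2: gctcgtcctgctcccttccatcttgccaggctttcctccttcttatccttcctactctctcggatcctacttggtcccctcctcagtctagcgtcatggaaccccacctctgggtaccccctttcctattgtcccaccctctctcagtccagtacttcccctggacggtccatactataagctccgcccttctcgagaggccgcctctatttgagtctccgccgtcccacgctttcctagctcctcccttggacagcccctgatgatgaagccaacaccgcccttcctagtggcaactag
That pattern, a spelling of the interferon-stimulated response element bound by interferon regulatory factors, was added to the search after the values were seen. It was in 5 of 36 proteasome genes, 13.9%, beside 3.99% of all genes: Psme1, Psmb3, Psmd4, Psmd9 and Psmg4. Of these 5, Psme1 was called and the other 4 were not. None of the 3 immunoproteasome genes held the pattern in this window.

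The 3 immunoproteasome genes had higher means in both treated groups and passed the test in Lipo-TriTE. Psmb9, which replaces Psmb6, stood at 85.1, 75.4 and 71.3 CPM in PBS, 118, 118 and 92.2 in Lipo-BiTE and 184, 129 and 146 in Lipo-TriTE, with PBS below the rest. It rose by 0.99 on the log2 scale in Lipo-TriTE (SE 0.17, edgeR adjusted p = 0.0014) and stood at 0.50 (SE 0.17, adjusted p = 0.062) in Lipo-BiTE. Psmb8, which replaces Psmb5, rose by 0.71 in Lipo-TriTE (SE 0.15, edgeR adjusted p = 0.0042), and Psmb10, which replaces Psmb7, by 0.80 (SE 0.23, edgeR adjusted p = 0.023). In Lipo-BiTE their values were 0.43 (edgeR adjusted p = 0.072) and 0.47 (adjusted p = 0.19). None of the 3 passed the test between the treated groups, with edgeR adjusted p of 0.25 for Psmb8, 0.089 for Psmb9 and 0.42 for Psmb10.

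Set against the constitutive subunit that each replaces, Psmb9 and Psmb10 had relatively more reads in every treated library than in any PBS library. The ratio of read counts cancels library size and scaling, but not the mix of cells in a tumour, whose part in these ratios was not tested. It compares libraries, not the 2 genes, whose lengths differ. Psmb9 reads per Psmb6 read were 0.583, 0.600 and 0.592 in PBS, 1.03, 1.13 and 0.705 in Lipo-BiTE and 1.72, 1.08 and 1.10 in Lipo-TriTE. The means were 0.592 ± 0.008 (SD, n = 3), 0.955 ± 0.222 and 1.30 ± 0.367, and the PBS libraries were below the rest. Mean log2 ratios were 0.66 higher in Lipo-BiTE than in PBS and 1.10 higher in Lipo-TriTE.

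Psmb10 reads per Psmb7 read were 0.504, 0.464 and 0.446 in PBS, 1.38, 1.12 and 0.783 in Lipo-BiTE and 1.90, 1.04 and 0.762 in Lipo-TriTE. The means were 0.471 ± 0.030 (SD, n = 3), 1.09 ± 0.297 and 1.23 ± 0.593, again with PBS below the rest. Mean log2 ratios were 1.18 and 1.28 higher than in PBS. For both ratios, against PBS, the two-sided exact permutation test gave p = 0.1 in each treated group, the smallest that 3 against 3 libraries allow, and 0.15 adjusted over the 6 ratios tested, so these comparisons could not reach 0.05. Between the treated groups the ratios overlapped, with exact permutation p of 0.3 for Psmb9 to Psmb6 and 1 for Psmb10 to Psmb7. Psmb8 to Psmb5 was not computed, as Psmb5 had no entry under its own name. An entry named Mir686 and described as Psmb5 held 8460 counts, and a pseudogene described as Psmb5 held 1753.

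**Figure D4:**
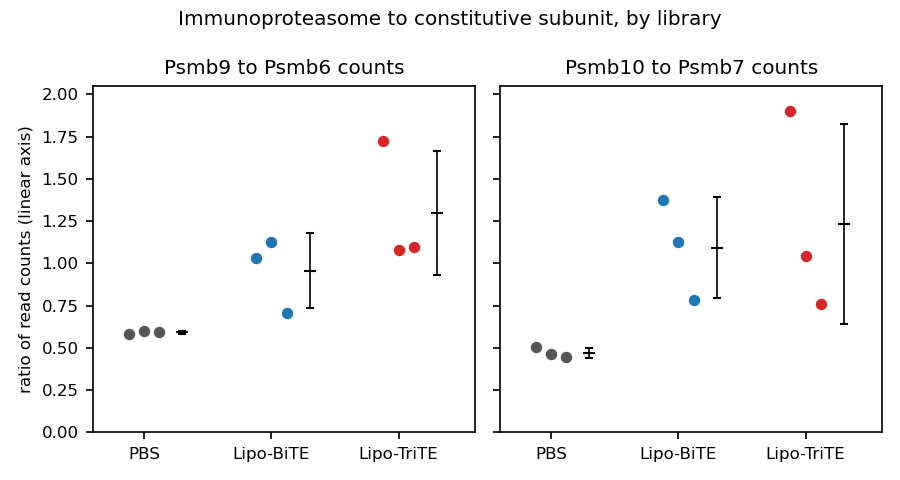
Ratio of read counts of Psmb9 to Psmb6 (left) and Psmb10 to Psmb7 (right) in each library (points; bars: mean and SD, n = 3), on a linear axis from 0. PBS libraries sit close together, below all treated libraries, and the treated groups spread widely and overlap, with Lipo-TriTE 1 highest in both.

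Summed markers of T cells, B cells and dendritic cells had their highest mean in Lipo-TriTE, as Psme1, Psme2 and the immunoproteasome genes did, while those of macrophages and neutrophils did not. The summed level of 8 T cell markers was 36.7 to 43.2 CPM in PBS, 180 to 335 in Lipo-BiTE and 804 to 1351 in Lipo-TriTE, and all 8 rose in each of the 3 comparisons. The 6 B cell markers summed to 6.89 to 10.4, 13.5 to 29.5 and 384 to 1136 CPM, with 1 of 6 called higher in Lipo-BiTE and 6 of 6 in Lipo-TriTE; Cd79a was at 0 in PBS 2. The 5 dendritic cell markers summed to 17.9 to 23.4, 39.8 to 54.7 and 201 to 248 CPM. Lipo-TriTE 1 had the highest T cell and B cell sums and also the highest levels of Psme1, Psme2, Psmb8, Psmb9 and Psmb10. The mean sums of 7 macrophage and 6 neutrophil markers were 1024 and 3375 CPM in Lipo-BiTE and 605 and 2734 CPM in Lipo-TriTE. Lipo-TriTE 1 had the lowest of its group for both, 496 and 1279 CPM. In contrast, Lipo-BiTE 1 had the highest of its group for both, 1624 and 6200 CPM, and for the T cell and B cell sums. It also had the highest Psme1, Psme2, Psmb8 and Psmb10 of its group, with Psmb9 nearly level with Lipo-BiTE 2. All 7 macrophage markers had negative changes from Lipo-BiTE to Lipo-TriTE, and none passed edgeR's test, with adjusted p from 0.094 upward. The part of any of these cells in the rise of Psme1 and Psme2 was not tested.

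Psmf1 encodes PI31, a protein first known as an inhibitor of the core. It stood at 41.6, 44.4 and 39.7 CPM in PBS, 41.0, 33.7 and 39.4 in Lipo-BiTE and 41.4, 46.9 and 37.2 in Lipo-TriTE, and the groups overlapped. Its values were -0.14 (SE 0.15, edgeR adjusted p = 0.55) and -0.00 (SE 0.15, adjusted p = 0.99) against PBS.

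Assembly chaperones help to build the core (Psmg1 to Psmg4) and the base (Psmd5, Psmd9 and Psmd10) and leave the finished particle. None of the 7 passed the test in any comparison, with edgeR adjusted p from 0.073 upward, and their median log2 fold changes were -0.27, -0.19 and 0.15. Psmg1, which with Psmg2 guides the building of the alpha ring, stood at 22.8, 25.7 and 19.5 CPM in PBS, 15.5, 12.6 and 17.7 in Lipo-BiTE and 18.4, 24.3 and 21.0 in Lipo-TriTE. Lipo-BiTE was below both other groups, at -0.57 against PBS (SE 0.20, edgeR adjusted p = 0.073), and Lipo-TriTE stood 0.47 above it (SE 0.20, adjusted p = 0.16). Psmg1 was called lower in Lipo-BiTE with DESeq2 (adjusted p = 0.045), on total counts without TMM (0.041) and without Lipo-BiTE 3 (0.044).

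Psmg2, the partner of Psmg1, stood at -0.34 in Lipo-BiTE and -0.20 in Lipo-TriTE (SE 0.23 for each, edgeR adjusted p = 0.34 and 0.55). Psmg3 was the member with the fewest reads among those tested, 898 in all, at 5.29 to 8.32 CPM over the 9 libraries, with values of -0.27 and -0.25 (SE 0.26 for each, edgeR adjusted p = 0.50 and 0.48). Psmg4 went the other way, at 12.8, 9.27 and 9.27 CPM in PBS, 10.3, 14.4 and 11.8 in Lipo-BiTE and 14.4, 13.01 and 13.2 in Lipo-TriTE. Its Lipo-TriTE libraries were above those of PBS, at 0.38 (SE 0.22, edgeR adjusted p = 0.21). Psmc3ip had log2 fold changes of -0.29 and -0.27 (SE 0.31 and 0.30, edgeR adjusted p = 0.54 and 0.52).

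Levels of different subunits were compared per length, as CPM per kilobase of the length the table gives. In PBS the tested alpha subunits ran from 58.8 for Psma3 to 190 for Psma6, 3.24-fold apart, the beta subunits from 35.4 for Psmb3 to 302 for Psmb1, 8.54-fold, and the ATPases from 33.4 for Psmc2 to 175 for Psmc1, 5.22-fold. The same genes were highest in each of these 3 lists in both treated groups, while the lowest beta subunit there was Psmb7, at 28.2 in Lipo-BiTE and 33.2 in Lipo-TriTE. Reads per length of different genes rest on the gene models of the table and on how reads of related copies were counted. A pseudogene described as Psma3 held 10.5% as many reads as Psma3, and Gm8394, described as Psma5, 7.17% as many as Psma5.

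Partners that bind the particle or help to load it went several ways. Of 11 tested, 3 rose and 1 fell in Lipo-BiTE, beside 13.8% and 3.22% of all genes, and 3 fell in Lipo-TriTE, beside 14.8%. Zfand2a, a stress-induced zinc finger protein that binds the cap, stood at 28.4, 52.9 and 44.0 CPM in PBS, 104, 104 and 57.7 in Lipo-BiTE and 38.5, 50.5 and 52.7 in Lipo-TriTE. It rose by 1.08 on the log2 scale in Lipo-BiTE (SE 0.27, edgeR adjusted p = 0.021). Zfand5, a relative that stimulates degradation, rose by 0.81 in Lipo-BiTE (adjusted p = 0.029), and Shfm1, the small cap subunit DSS1, by 0.59 (adjusted p = 0.036). Ube3c, a ubiquitin ligase on the particle, fell by 0.43 in Lipo-BiTE (edgeR adjusted p = 0.044) and by 0.38 in Lipo-TriTE (adjusted p = 0.040). Usp14, a deubiquitinase of the cap, and AI314180, the adaptor ECM29, fell by 0.47 and 0.44 in Lipo-TriTE (edgeR adjusted p = 0.030 and 0.017).

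Genes that make ubiquitin or carry its conjugates to the proteasome were called lower in Lipo-TriTE for 3 of 11 tested, beside 14.8% of all genes. In Lipo-BiTE none was called, beside 3.22% of all genes, with edgeR adjusted p from 0.086 upward. Ubqln2, a shuttle between ubiquitin conjugates and the cap, stood at 110, 118 and 123 CPM in PBS, 89.7, 116 and 123 in Lipo-BiTE and 60.6, 60.9 and 48.3 in Lipo-TriTE, which was below both other groups. It fell by 1.05 on the log2 scale against PBS (SE 0.16, edgeR adjusted p = 0.00070) and by 0.95 against Lipo-BiTE (SE 0.16, edgeR adjusted p = 0.0070). Its relative Ubqln4 fell by 0.74 and the shuttle Rad23b by 0.55 against PBS (edgeR adjusted p = 0.0077 and 0.017).

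Among 12 tested genes of the factors that control proteasome genes, Nfe2l1, which encodes NRF1, fell by 0.52 in Lipo-TriTE against PBS (SE 0.14, edgeR adjusted p = 0.016), at 230, 254 and 252 CPM in PBS and 184, 181 and 148 in Lipo-TriTE. In Lipo-BiTE it stood at 206, 229 and 254 CPM, overlapping with PBS, at -0.09 (edgeR adjusted p = 0.68). Mafg, a partner of NRF1 on DNA, fell by 0.65 in Lipo-TriTE against PBS and by 0.80 against Lipo-BiTE (edgeR adjusted p = 0.035 and 0.037). Its libraries overlapped between Lipo-TriTE, at 88.4, 88.3 and 79.4 CPM, and PBS, at 85.1, 153 and 163 CPM. Maff, a related partner, rose by 0.72 in Lipo-BiTE (edgeR adjusted p = 0.044) and fell by 0.93 from Lipo-BiTE to Lipo-TriTE (adjusted p = 0.024). The other 9 tested genes of this list passed the test in none of the comparisons. Of the 12, 1 was called higher in Lipo-BiTE, beside 13.8% of all genes, and 2 lower in Lipo-TriTE, beside 14.8%. From Lipo-BiTE to Lipo-TriTE 2 were called lower, beside 5.21% of all genes.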

How the data were processed

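RNA of 9 tumour samples was sequenced from random-primed, PCR-amplified libraries of fragmented mRNA, per the labels' protocols. The authors deposited unnormalized read counts for each gene, whole numbers with a different total in each library, as the file itself shows; neither the aligner nor the counting tool nor the use of strand is named in these sources. Gene models carry C57BL/6NJ identifiers, per the file headers and entries, and the deposited gene length served only for levels per kilobase. The sources do not say that libraries of a group came from separate mice, so p-values cover only the spread among these samples, which may be technical. Reads without molecular identifiers are not molecules.

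The count analysis used edgeR 4.0.16 under R 4.3.3: filterByExpr, which left 16596 genes, TMM scaling, and the robust quasi-likelihood F test over the 9 libraries with 1 mean per group. Each comparison was a contrast of 2 group means, with Benjamini-Hochberg adjustment over all tested genes and calls at 0.05. The standard error of a log2 fold change was its size over the root of the F statistic. Pairs of subunits that replace each other were compared by log2 ratios of counts and exact permutation over libraries. Alternatives were DESeq2 1.42.0, limma-voom 3.58.1, total counts without TMM, other filters, a replicate block, 1 count added to both genes of a ratio, 6 libraries alone and each library left out.

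The members and lists were chosen with earlier results of these data known. Named genes were Psmb6, Psmb7, the activators, Psmf1, Psmg1 to Psmg4 and the immunoproteasome genes whatever their result; up to 4 called members of a role with the smallest p and the one with the largest change, per comparison; and up to 3 called genes of each other list. Psma3, Psma6, Psma8, Psmb3, Psmb11, Psmc2, Psmc3, Psmc3ip, Psmd4, Psmd7, Psmd14, Psmd9 and related copies, where given beyond these rules, were picked after their values were seen. Promoter sequences are RefSeq's for GRCm38.p6.

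No pair of libraries in a group was alike within sampling noise, with chi-square per degree of freedom of 4.98 to 95.5. The test was checked on simulated data before use. Most of the smaller changes planted there were not recovered, so a gene that was not called may still differ.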

Additional observations from a re-analysis of the deposited data

How the results depend on the processing

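The libraries of a group varied by a median of 7.05% to 14.0% (CV) over the tested members, and each group had 3, which limits how small a change could pass the test. The number of genes lower in Lipo-BiTE than PBS, 3, was 6 with DESeq2, 7 on total counts without TMM, 1 without both PBS 1 and Lipo-TriTE 3, a choice made after seeing the data, and 1 to 5 when each library was left out in turn. The number lower in Lipo-TriTE than PBS, 2, was 0 with a filter of at least 1 CPM in at least 3 libraries, 0 with the replicate block, 1 without PBS 1 and Lipo-TriTE 3, 1 on the 6 libraries alone and 0 to 6 with each library left out; the number higher, 2, was 1 to 2. The number higher in Lipo-TriTE than Lipo-BiTE, 1, was 2 on total counts, 2 without a filter, 0 with the replicate block, 0 without PBS 1 and Lipo-TriTE 3, 0 on the 6 libraries alone and 0 to 1 with each library left out. The cause was not tested. The numbers higher in Lipo-BiTE than PBS and lower in Lipo-TriTE than Lipo-BiTE were 0 throughout. Total counts moved the median of all genes to -0.155 in Lipo-BiTE against PBS and 0.112 between the treated groups; the members lay -0.243 and 0.113 from it, beside -0.249 and 0.118 with TMM.

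No pairing by replicate number was seen. Deviations of same-numbered libraries correlated at -0.194 to 0.0755, with 0 of 9 above 0.1, beside -0.169 to 0.239 for differently numbered libraries of different groups. With 3 libraries a group, this check cannot show whether same-numbered libraries shared a batch. With the replicate block, Psmb7 and Psmd1 kept their calls in Lipo-BiTE (2 lower calls) and Psme1 and Psme2 theirs in Lipo-TriTE (2 higher calls), and ratios had an exact p no lower than 0.25.

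Values close to 0 changed sign in 31 single-gene settings. In Lipo-BiTE against PBS, on total counts Psme1 was -0.04 and Psme4 -0.09, and without PBS 1 and Lipo-TriTE 3 Psme3 was 0.02; leaving out each library gave -0.02 to 0.25 for Psme1, -0.15 to 0.01 for Psme3 and -0.03 to 0.07 for Psme4. In Lipo-TriTE against PBS, Psmf1 was 0.04 with DESeq2, 0.03 with the CPM filter, 0.07 without PBS 1 and Lipo-TriTE 3 and 0 on the 6 libraries, and Psme3 was 0.03 without PBS 1 and Lipo-TriTE 3. Leaving out each library gave -0.07 to 0.06 for Psmf1, -0.12 to 0 for Psme3, -0.19 to 0.01 for Psmg1 and -0.44 to 0.01 for Psmg2. Between the treated groups, without PBS 1 and Lipo-TriTE 3 Psmb6 was -0.04 and Psmg2 -0.09; leaving out each library gave -0.05 to 0.17 for Psmb6, -0.06 to 0.09 for Psme3, -0.1 to 0.35 for Psmg2 and -0.1 to 0.12 for Psmg3, and the log2 ratio of Psmb10 to Psmb7 ran from -0.26 to 0.4. Ratios against PBS kept their direction, at 0.53 to 1.58.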
